A study of Mus musculus with 12 samples.

Results

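The transcripts of 10 core circadian clock genes were followed in the retina of Pias3+/+ and Pias3-/- mice. The genes are Arntl (also known as Bmal1), Npas2, Per1, Per2, Per3, Cry1, Cry2, Nr1d1, Nr1d2 and Dbp, which were taken by name from a table of counts for 24062 genes. RNA was sequenced from 12 samples of 2 frozen retinas each, with 3 samples per group. The groups were wild type (Pias3+/+) and knockout (Pias3-/-) at postnatal day 21 (P21), and the same genotypes at 18 months (18M). The strain of all 12 samples is labelled C57Bl6/J and the titles of the wild-type samples name that strain in place of a genotype, and whether they were littermates of the knockouts is not given in the sources used here. The labels give no treatment. The knockout is a germline line on a C57BL/6J background that lacks exons 2 to 5 of Pias3 in all tissues. It arose when Rx-Cre, meant for retina and forebrain, recombined in oocytes, after founders had been crossed with Actin-Flp, and mice of either sex were used. Whether the pair of retinas in a sample came from 1 animal is not given in the sources used here. The labels give neither the hour of collection nor the light to which the mice were exposed before it, so genes of opposite phase were compared library by library.

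The mammalian clock is a loop of transcription and repression that runs once a day in almost every cell. ARNTL pairs with CLOCK or NPAS2, binds E-boxes in DNA and activates the Per and Cry genes, whose proteins return to block that activation. The same activators drive Nr1d1 and Nr1d2, which encode the nuclear receptors REV-ERB alpha and beta, and these repress Arntl, Npas2 and Cry1 through ROR elements. Dbp encodes a transcription factor that is an output of the loop and acts on D-boxes. In most mouse tissues outside the brain, Arntl and Npas2 transcripts peak as those of Nr1d1 and Dbp are lowest, Per transcripts follow Nr1d1 and Dbp, and Cry1 peaks later than the Per genes. In the retina the clock is known for its part in dopamine and melatonin release and in adaptation to light and dark.

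Libraries held between 11607155 and 25622505 counts. Expression was taken as CPM, the counts relative to a library total scaled by TMM (trimmed mean of M values), and 3 counts, the smallest level considered, were between 0.122 and 0.263 CPM. Pias3, whose counts include exons outside the deletion, was between 114 and 141 CPM in wild type and between 72.3 and 87.1 CPM in knockout at P21, and between 97.6 and 108 CPM and between 52.8 and 61.1 CPM at 18 months, with log2 fold changes at P21 and 18 months of -0.71 (FDR 0.0346) and -0.84 (FDR 0.00458) in edgeR's quasi-likelihood test. Rod, cone, bipolar, Muller glia, amacrine and ganglion cell markers were all detected in all libraries. Some libraries stood apart by base composition and by gene length. The Spearman correlation, across genes, of a library's deviation from the mean of all libraries with GC content was -0.49 in P21 knockout replicate 2, 0.45 in P21 knockout replicate 3 and 0.55 in 18M knockout replicate 3. With counted gene length it was -0.48 in P21 knockout replicate 3, 0.40 in 18M wild-type replicate 1 and 0.35 in 18M wild-type replicate 2. The log2 fold change of genotype ran with length across genes, with Spearman correlations of -0.35 at P21 and -0.39 at 18 months. Replicate 2 of the 18M knockout carried lens RNA (Cryaa at 4775 CPM, against 2.68 to 178 CPM in the other libraries). At 18 months all wild-type libraries expressed Xist and all knockout libraries Y-linked genes, so that sex and genotype cannot be told apart at that age. Both sexes were present in each genotype at P21, but not in balance. There wild-type replicates 1 and 3 and knockout replicate 3 expressed Xist, and the other libraries Y-linked genes. Of the 10 clock genes, Dbp had a transcript GC content of 61.6% (percentile 97.9 of tested genes), Per1 59.4% (percentile 94.1), Nr1d1 56.8% (percentile 85.8) and Nr1d2 41.8% (percentile 11.4). A correction for gene length and GC content, chosen after seeing the data, was therefore also applied to the clock genes, and its values are given where they bear on a result; the other gene lists were not corrected.

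Start sites of 9 of the 10 genes were matched in RefSeq (GRCm38.p6), Per2 being the other one, and the window from 250 bases before to 50 after each start was searched on both strands. The motifs were the E-box CACGTG, the E-prime box CACGTT, the D-box TTATGTAA or TTACGTAA, and the ROR element core TAGGTCA or TGGGTCA, and no match found overlaps another. Matches upstream of the start were found for 5 genes, and the promoters are shown of the gene with the largest change among those tested in the knockout (Cry1), of the other cryptochrome (Cry2), of the repressor of Cry1 (Nr1d1) and of 2 Per genes. They are given as the 250 bases upstream of the start, 5′ to 3′ on the gene's strand, with matches in capitals. The windows are Cry1 at chr10:85185055-85185304 on the minus strand, Cry2 at chr2:92434070-92434319 on the minus strand, Nr1d1 at chr11:98775378-98775627 on the minus strand, Per1 at chr11:69098699-69098948 on the plus strand and Per3 at chr4:151044666-151044915 on the minus strand.
Cry1: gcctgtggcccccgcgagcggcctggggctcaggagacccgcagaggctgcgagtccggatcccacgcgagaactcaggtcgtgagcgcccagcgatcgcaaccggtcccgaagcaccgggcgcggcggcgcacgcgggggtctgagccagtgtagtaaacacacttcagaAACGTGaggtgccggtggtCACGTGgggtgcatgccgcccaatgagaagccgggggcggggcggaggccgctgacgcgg
Cry2: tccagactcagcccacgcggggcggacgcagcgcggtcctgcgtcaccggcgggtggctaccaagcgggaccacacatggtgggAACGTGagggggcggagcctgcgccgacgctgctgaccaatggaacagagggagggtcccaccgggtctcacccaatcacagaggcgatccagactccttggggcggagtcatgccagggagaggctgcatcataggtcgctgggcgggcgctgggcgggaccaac
Nr1d1: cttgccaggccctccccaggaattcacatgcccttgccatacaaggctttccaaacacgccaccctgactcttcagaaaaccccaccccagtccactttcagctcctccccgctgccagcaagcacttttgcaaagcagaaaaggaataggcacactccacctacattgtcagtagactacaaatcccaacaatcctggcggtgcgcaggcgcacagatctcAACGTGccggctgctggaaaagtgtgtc
Per1: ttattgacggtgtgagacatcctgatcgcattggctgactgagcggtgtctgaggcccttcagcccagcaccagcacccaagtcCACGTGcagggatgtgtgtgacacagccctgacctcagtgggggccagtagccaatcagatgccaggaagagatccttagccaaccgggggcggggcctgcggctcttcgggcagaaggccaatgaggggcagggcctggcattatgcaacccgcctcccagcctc
Per3: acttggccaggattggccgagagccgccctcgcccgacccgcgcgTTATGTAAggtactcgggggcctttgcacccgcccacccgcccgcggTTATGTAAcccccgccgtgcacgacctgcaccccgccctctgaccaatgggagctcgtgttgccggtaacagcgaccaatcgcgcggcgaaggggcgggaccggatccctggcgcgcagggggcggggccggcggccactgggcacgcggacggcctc
Cry1 had an E-box at -60 and an E-prime box, read on the opposite strand, at -79, where 0 is the annotated start. Nr1d1 had an E-prime box on the opposite strand at -28, and Per1 had an E-box at -166 from the first of its 2 starts. Per3 had D-boxes at -205 and -158. Cry2 had an E-prime box on the opposite strand at -166, and Arntl a ROR element core at 30, downstream of the later of its 2 starts. Npas2, Nr1d2, Dbp and the second start of Per1 held none of these letters in the window. Among all 32851 promoters of this length, 7.15% held an E-box, 4.68% an E-prime box, 1.06% a D-box and 6.45% a ROR element core. The matches describe these windows only.

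Levels between genes were compared in FPKM, which divides by the counted length of each gene. Over the 12 libraries the median level was highest for Nr1d1 at 72.0 FPKM (range 48.1 to 94.7), a repressor of Arntl. Dbp followed at 53.3 FPKM (37.5 to 69.7) and Nr1d2 at 50.1 FPKM (34.9 to 58.5). The activator Arntl had 41.7 FPKM (38.7 to 46.9) and the repressor Cry2 39.6 FPKM (33.1 to 46.8). Cry1 had 22.8 FPKM (21.5 to 46.4). Per1 had 17.4 FPKM (15.3 to 23.6), Per3 16.3 FPKM (13.5 to 19.2) and Per2 5.71 FPKM (5.19 to 8.11). Npas2, the partner of ARNTL found mainly in forebrain, was lowest at 0.849 FPKM (0.583 to 1.60). Neighbours in this order overlapped over the libraries, except that all values of Per3 lay above all of Per2, and all of Per2 above all of Npas2. Over all 12 libraries the highest CPM was 2.74 times the lowest for Npas2 and 2.16 times for Cry1, but 1.21 times for Arntl, the steadiest of the 10. Npas2 did not reach 2 FPKM in any library, the minimum for testing, and the other 9 genes did.

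**Figure D1:**
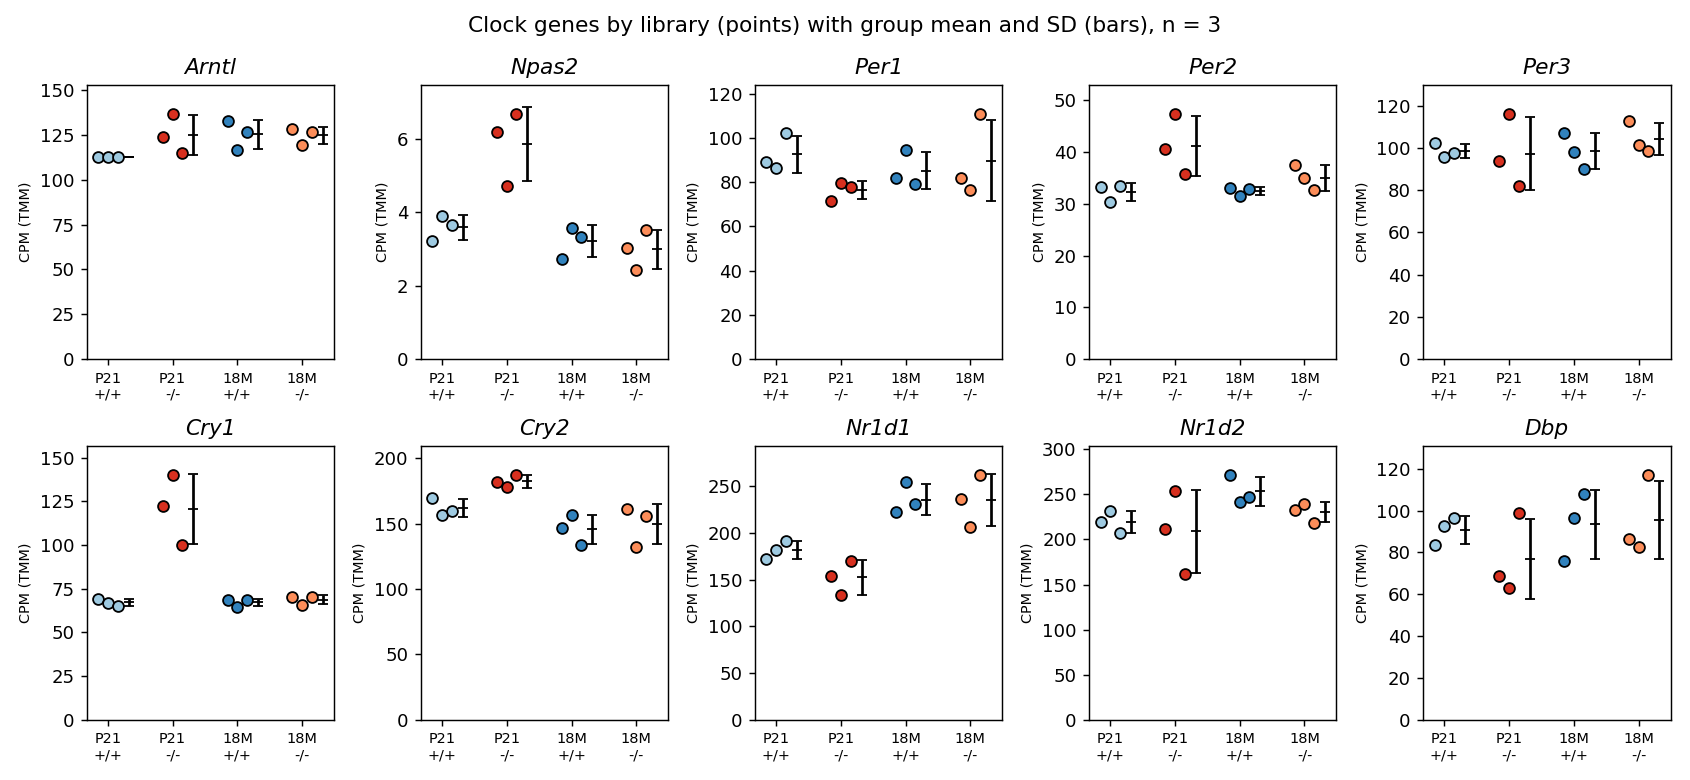
TMM-normalised CPM of each clock gene (vertical axis, from 0) in the 3 libraries of each group (points, replicates 1 to 3 from left to right), with the group mean and SD beside them. Cry1 was between 99.8 and 140 CPM in the P21 knockout and between 64.8 and 70.4 CPM in the other 9 libraries, whereas Arntl was between 113 and 136 CPM throughout.

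The first comparison asks whether clock transcripts differ with loss of Pias3 in young retina. At P21 Cry1 rose in the knockout, and it was the 1 gene of the 9 tested that was called, which here requires an FDR no higher than 0.05 together with a change of 1.5-fold or more. By unadjusted p, 5 of the 9 were under 0.05, against 16.8% of all genes tested. Of all 12109 genes tested, 0.818% were called. The groups did not overlap for 6 of the 9 tested genes, namely Arntl, Per2, Cry1 and Cry2, which were higher in the knockout, and Per1 and Nr1d1, which were lower, against 26.5% of all genes tested. The median log2 fold change of the 9 was -0.03, against 0.00126 for all genes tested. These are bulk samples, in which fewer cells of a type and less RNA per cell cannot be told apart.

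Cry1 (chr10:85131700-85185054, minus strand), which encodes a cryptochrome and is the strongest repressor of the loop, had 69.4, 66.8 and 65.1 CPM in the 3 wild-type libraries and 122, 140 and 99.8 CPM in the 3 knockout libraries. All knockout libraries lay above all wild-type libraries. The counts behind these values were 1231, 960 and 1211 in wild type and 2229, 2193 and 2290 in knockout. The mean was 67.1 ± 2.14 CPM (SD, n = 3) in wild type and 121 ± 20.1 CPM (SD, n = 3) in knockout, a 1.79-fold rise (log2 fold change 0.84, SE 0.123, FDR 0.0336 in edgeR's quasi-likelihood test). The change ranked above 98.4% of all tested genes in absolute size. Its call depended on the samples kept. Without wild-type replicate 1, 2 or 3, or knockout replicate 1, the log2 fold change was 0.87, 0.83, 0.81 or 0.83. The FDR was then 0.200, 0.173, 0.193 or 0.170. In these fits 12, 8, 6 or 6 genes were called in all, against 99 with all samples. Cry1 remained called without knockout replicate 2 or 3. Cry2 (chr2:92403647-92434069, minus strand), the other cryptochrome, had 170, 157 and 160 CPM in wild type and 182, 178 and 187 CPM in knockout. Its groups did not overlap, with a log2 fold change of 0.16 (SE 0.070, FDR 0.297).

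Neither activator passed the test. Arntl (chr7:113207465-113314126, plus strand) had 113 CPM in each wild-type library and 124, 136 and 115 CPM in the knockout libraries. The wild-type libraries were almost equal and the knockout libraries all lay above them, with a log2 fold change of 0.14 (SE 0.082, FDR 0.436). Npas2 (chr1:39194272-39363240, plus strand) had 3.21, 3.90 and 3.66 CPM in wild type and 6.19, 4.72 and 6.67 CPM in knockout, from 57, 56 and 68 and from 113, 74 and 153 counts. The groups did not overlap. In a fit with no FPKM filter its log2 fold change was 0.72 (SE 0.181) with an FDR of 0.106, so that it did not pass the test.

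Among the Per genes, whose proteins hold the cryptochromes in the repressor complex, the directions differed. Per1 (chr11:69098956-69109957, plus strand), which also answers quickly to light and to glucocorticoids, had 89.1, 86.6 and 102 CPM in wild type and 71.7, 79.4 and 78.0 CPM in knockout. All its knockout libraries were below all wild-type libraries, with a log2 fold change of -0.29 (SE 0.089, FDR 0.170). Per2 (chr1:91415982-91459328, minus strand) had 33.2, 30.3 and 33.5 CPM in wild type and 40.5, 47.3 and 35.8 CPM in knockout. Its knockout libraries were all higher, with a log2 fold change of 0.34 (SE 0.118, FDR 0.211). Per3 (chr4:151003655-151044665, minus strand) had 102, 95.5 and 97.8 CPM in wild type and 93.8, 116 and 81.8 CPM in knockout. These groups overlapped, with a log2 fold change of -0.03 (SE 0.125, FDR 0.942).

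None of the REV-ERB genes and Dbp, which mark the phase opposite to Arntl, passed the test. Nr1d1 (chr11:98767932-98775377, minus strand) had 172, 182 and 191 CPM in wild type and 154, 133 and 170 CPM in knockout. The highest knockout library was just under the lowest wild-type library, and the log2 fold change was -0.26 (SE 0.102, FDR 0.256). Nr1d2 (chr14:18204056-18239106, minus strand) had 219, 232 and 207 CPM in wild type and 212, 254 and 162 CPM in knockout. The groups overlapped, with knockout replicates 2 and 3 at the extremes (log2 fold change -0.07, SE 0.152, FDR 0.856). Dbp (chr7:45705247-45710203, plus strand) had 83.4, 92.4 and 96.7 CPM in wild type and 68.7, 63.0 and 98.7 CPM in knockout. Knockout replicates 1 and 2 were below every wild-type library and replicate 3 above them (log2 fold change -0.25, SE 0.167, FDR 0.507). These values depended on single libraries. Without knockout replicate 3 the log2 fold change was -0.47 for Dbp (FDR 0.0340, under 1.5-fold), -0.34 for Nr1d1 (FDR 0.0759) and 0.20 for Arntl (FDR 0.164), and without knockout replicate 2 it was -0.12, -0.17 and 0.075 for these genes (FDR 0.618, 0.208 and 0.512).

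**Figure D2:**
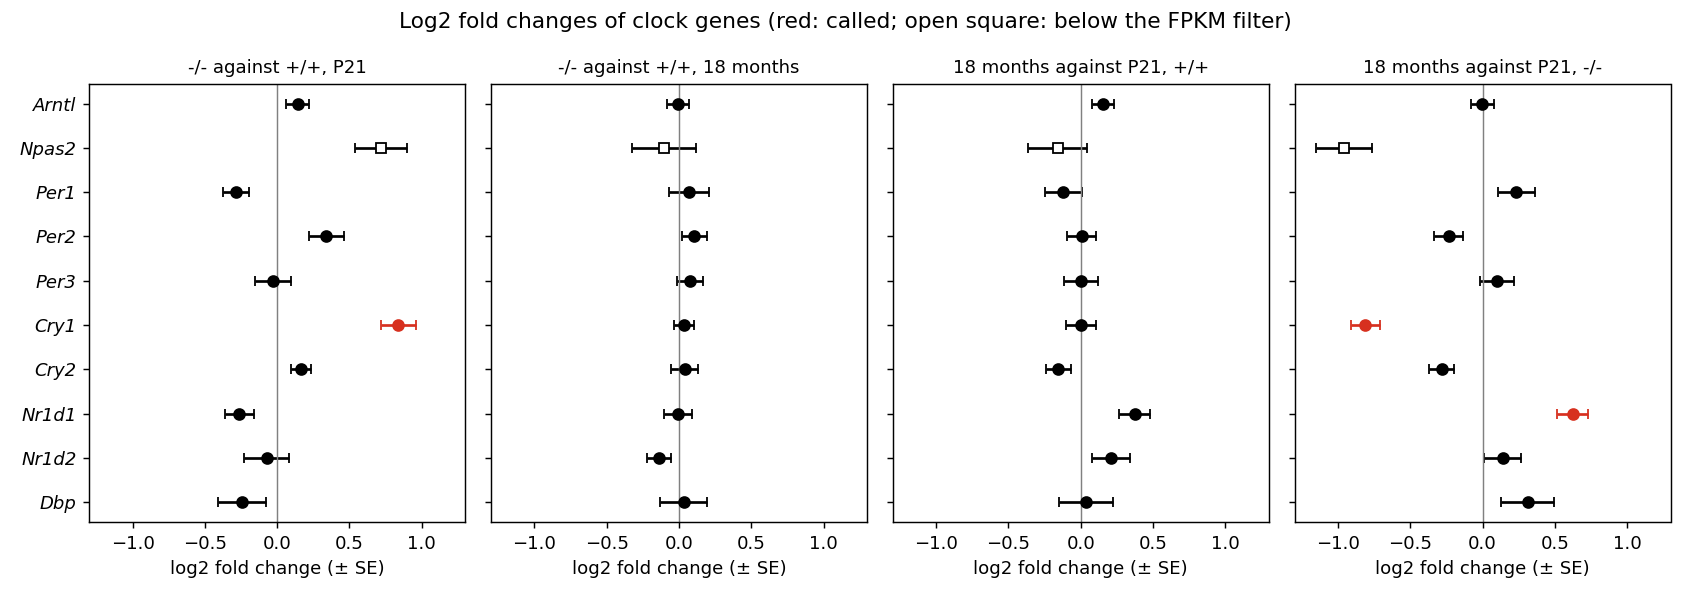
Log2 fold change (horizontal axis) of each clock gene in 4 comparisons, with the standard error from edgeR as bars, red points for called genes and open squares for Npas2, which was below the FPKM filter and is shown from the fit without it. Cry1 at P21 (0.84) and its opposite with age in the knockout (-0.81) were the largest changes of the tested genes, and values at 18 months were between -0.14 and 0.11 for the tested genes.

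Correction for gene length and GC content, whose parts were not separated for single libraries, changed the spread among the knockout libraries. It was smaller for some genes, such as Dbp and Nr1d1, and wider for Per1, Cry1 and Cry2. Per1 had log2 CPM of 6.17, 6.31 and 6.29 in the knockout libraries before and 6.22, 6.58 and 6.20 after it. Dbp had log2 CPM of 6.10, 5.98 and 6.63 in the knockout libraries before and 6.10, 6.41 and 6.19 after the correction. The corresponding wild-type values after correction were 6.49, 6.67 and 6.36, so that knockout replicate 3 no longer lay above the wild type, and the groups still overlapped (log2 fold change -0.28, FDR 0.100, or 0.0142 with a replicate block as well). For Nr1d1 the corrected log2 CPM was 7.47, 7.58 and 7.48 in wild type and 7.26, 7.27 and 7.21 in knockout. The knockout libraries were then tightly grouped below the wild type, with a log2 fold change of -0.27 and an FDR of 0.0127, still under 1.5-fold. After correction Per2 had a log2 fold change of 0.44 (FDR 0.0218), Cry2 0.21 (FDR 0.0492) and Cry1 0.82 (FDR 0.00557). Per1 had -0.17 (FDR 0.287), with its groups now overlapping. Cry1 was thus the 1 gene called with and without the correction, whereas Nr1d1, Per2 and Cry2 passed the FDR, at under 1.5-fold, with it and not without it. With length alone corrected, the FDR was 0.0410 for Per2, 0.135 for Nr1d1 and 0.163 for Cry2.

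Summed markers of rods, cones, lens and endothelium did not overlap between the genotypes at P21, and those of the pigment epithelium did. The summed level of 5 rod markers was between 53007 and 55761 CPM in wild type and between 39793 and 40870 CPM in knockout, with 5 of 5 markers lower and 1 called. The summed level of 5 pigment epithelium markers was between 152 and 196 CPM in wild type and was 27.6, 161 and 62.3 CPM in the knockout libraries, with 4 of 4 tested markers lower, 0 called by edgeR's quasi-likelihood test and 2 with an unadjusted p under 0.05. Rpe65 was not at 0 in any library. Cone markers summed to between 1450 and 1482 CPM in wild type and between 1288 and 1336 CPM in knockout, lens markers to between 41.4 and 188 CPM and between 7.33 and 39.2 CPM, and endothelial markers to between 25.0 and 29.7 CPM and between 29.8 and 46.9 CPM. With the pigment epithelium level as a covariate, which leaves 5 genes called in all, Cry1 had a log2 fold change of 0.95 with an FDR of 0.195. With Xist as a covariate it had 0.77 with an FDR of 0.0506. The part of rod, cone, lens or endothelial RNA in the clock gene differences was not tested.

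Genes of opposite phase were then set against each other within each library. The mean log2 CPM of Nr1d1, Nr1d2, Dbp, Per1, Per2 and Per3 was subtracted from the mean log2 CPM of Arntl and Npas2. This phase contrast, which grows when a library has more Arntl and Npas2 or less of the others, is given as a description with no test. It was -2.36, -2.23 and -2.34 in P21 wild type and -1.72, -1.94 and -1.73 in P21 knockout. At 18 months it was -2.44, -2.40 and -2.35 in wild type and -2.44, -2.55 and -2.43 in knockout. The 3 P21 knockout libraries were the highest of the 12, and the other 9 lay between -2.55 and -2.23. Group means were -2.31 ± 0.070 (SD, n = 3) in P21 wild type, -1.80 ± 0.125 in P21 knockout, -2.40 ± 0.044 in 18M wild type and -2.47 ± 0.064 in 18M knockout. The knockout was thus higher by 0.51 at P21 and lower by 0.08 at 18 months, where the groups overlapped.

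**Figure D3:**
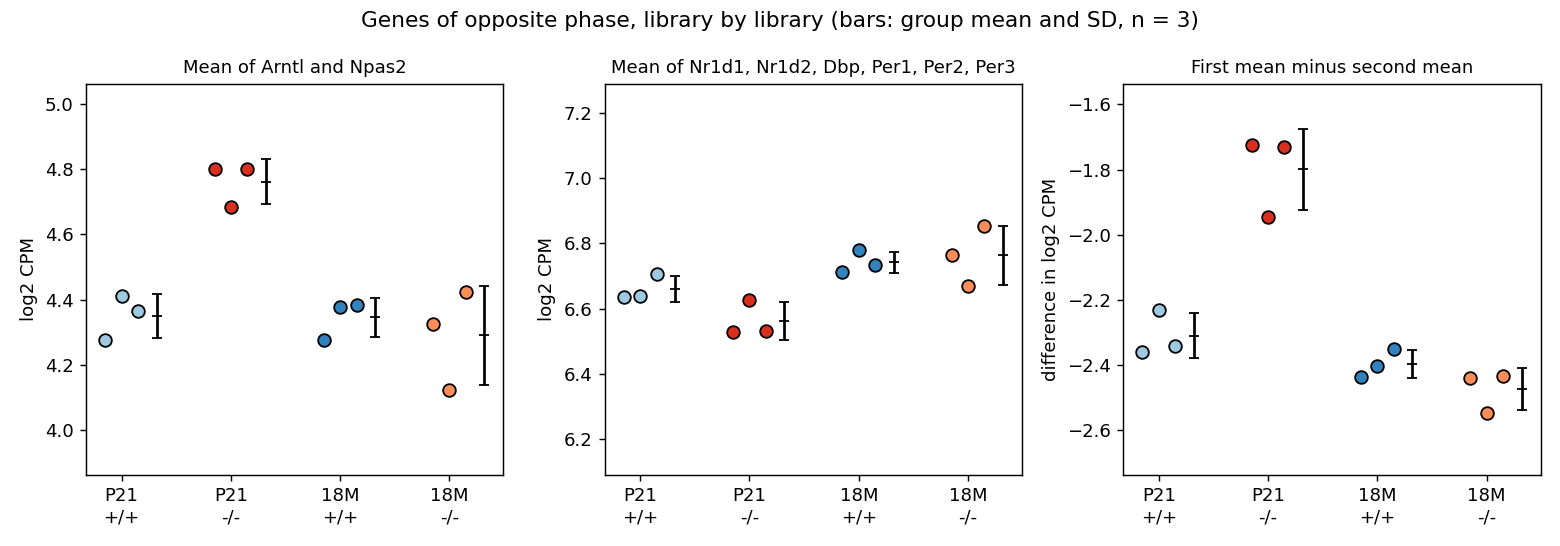
Mean log2 CPM of Arntl and Npas2, mean log2 CPM of the 6 genes of opposite phase, and their difference (vertical axes, each spanning an equal width) in each library, with group means and SD (bars). The P21 knockout libraries have a difference between -1.94 and -1.72, above all other libraries.

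Npas2, the least expressed of the genes and under the minimum for testing, had the largest part of any gene in the difference at P21. The mean of Arntl and Npas2 was 4.35 ± 0.068 log2 CPM in wild type and 4.76 ± 0.068 in knockout (SD, n = 3), while the mean of the 6 opposite genes was 6.66 ± 0.040 and 6.56 ± 0.057. Without Npas2 the phase contrast differed by 0.24 between the genotypes at P21, and the genotypes still did not overlap at P21. The P21 knockout libraries were then no longer the highest of all, since 18M wild-type replicate 1 (0.34) lay above P21 knockout replicate 3 (0.31). With Arntl against Nr1d1 and Dbp alone it differed by 0.41 and the groups overlapped, since knockout replicate 3 (-0.18) lay among the wild-type libraries (-0.27 to -0.09). It also lay below 18M wild-type replicate 1 (0.030), whereas knockout replicate 2 was highest of all 12 libraries (0.58). Without the Per genes the difference was 0.62, with Cry1 added to Arntl and Npas2 it was 0.65, and after correction for length and GC content it was 0.45. With each P21 library left out in turn it was between 0.47 and 0.58.

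Ratios of counts within a library need no scaling between libraries. Cry1 counts divided by Nr1d1 counts were 0.402, 0.367 and 0.340 in P21 wild type and 0.793, 1.05 and 0.587 in P21 knockout. They were 0.307, 0.255 and 0.296 in 18M wild type and 0.298, 0.319 and 0.267 in 18M knockout. Each P21 knockout library had the higher ratio. Npas2 counts divided by Dbp counts were between 0.0378 and 0.0422 in P21 wild type, between 0.0676 and 0.0900 in P21 knockout and between 0.0294 and 0.0371 at 18 months. Arntl counts divided by Dbp counts overlapped between genotypes at both ages, with 1.16 to 1.35 in P21 wild type and 1.16 to 2.17 in P21 knockout.

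The relation between genes of opposite phase was tested over libraries for 12 pairs, Arntl or Npas2 with each of the 6 others. Over all 12 libraries no pair passed adjustment over the 12 pairs (permutation test, 2-sided, adjusted p between 0.136 and 0.928 for Pearson's r). Within the 6 P21 libraries Arntl and Nr1d1 had opposite orders in all libraries, with r = -0.96 (exact permutation test, 2-sided, p = 0.00139, adjusted p = 0.0167) and rho = -1 (exact permutation p = 0.00278, adjusted p = 0.0333). Arntl was almost equal in the wild-type libraries, at 112.9, 112.7 and 112.5 CPM, so that their order is uncertain. Without the 2 libraries farthest from the median of Arntl, knockout replicates 1 and 2, r was -0.74. The other P21 libraries held between 113 and 115 CPM of Arntl. Values of r without those 2 thus cover a narrow range and decide little. After correction for length and GC content, over all 6 libraries, r was -0.59. Arntl and Per2 rose and fell together at P21, with r = 0.96 (exact permutation p = 0.00556, adjusted p = 0.0333) and rho = 0.83 (exact permutation p = 0.0583, adjusted p = 0.233), 0.72 without the 2 farthest libraries and 0.91 after correction. Arntl and Dbp had r = -0.90 at P21 (exact permutation p = 0.0222, adjusted p = 0.0889) and rho = -0.66 (exact permutation p = 0.175, adjusted p = 0.350). Without the 2 farthest libraries r was 0.43, again over the narrow range of Arntl. These 6 libraries hold both genotypes, and with group means subtracted, over the 12 libraries, r was -0.52 for Arntl and Nr1d1, 0.74 for Arntl and Per2, and -0.53 for Arntl and Dbp. After correction these were 0.018, 0.66 and 0.029, so that within groups the first and the last did not hold. Npas2 went the other way, with 0.93 for Nr1d1 and 0.82 for Dbp within groups, and 0.33 and -0.014 after correction. Arntl and Npas2, averaged in the phase contrast, had r = -0.50 within groups. At 18 months r for Arntl was -0.06 with Nr1d1, 0.27 with Per2 and -0.15 with Dbp, and no pair passed (exact permutation test, lowest adjusted p = 0.117, for Npas2 and Nr1d1 with r = 0.92).

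**Figure D4:**
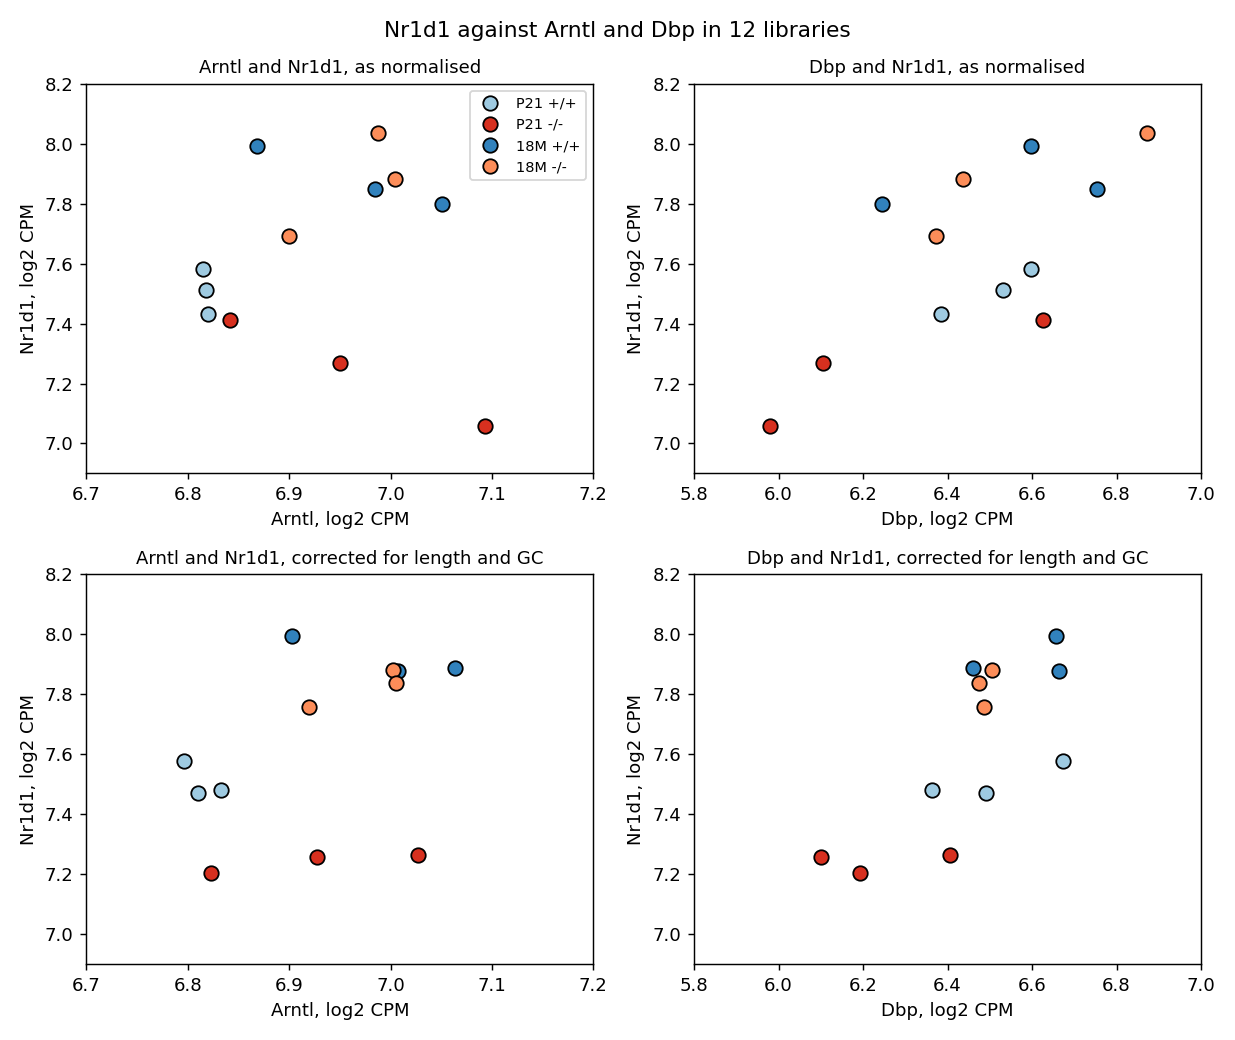
Log2 CPM of Nr1d1 (vertical axis) against Arntl and against Dbp (horizontal axes) in the 12 libraries, as normalised (top) and after correction for length and GC content (bottom), coloured by group. At P21 Nr1d1 falls as Arntl rises before correction (r = -0.96), and after it the 3 knockout libraries lie between 7.21 and 7.27 for Nr1d1 at all levels of Arntl.

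At 18 months 0 of the 9 tested clock genes were called by edgeR's quasi-likelihood test, 0 had an unadjusted p under 0.05, and 0 were called by DESeq2. Of all genes tested, 0.257% were called and 9.27% had an unadjusted p under 0.05. Cry1 had 68.4, 64.8 and 68.3 CPM in wild type and 70.4, 65.9 and 70.0 CPM in knockout. These 6 libraries overlapped, with a log2 fold change of 0.03 (SE 0.069, FDR 0.882). The groups did not overlap for 1 of the 9, against 15.8% of all genes tested. That was Nr1d2, with 271, 241 and 247 CPM in wild type and 233, 240 and 219 CPM in knockout (log2 fold change -0.14, SE 0.080, FDR 0.594), and its log2 fold change was -0.01 after correction for length and GC content. Arntl was between 117 and 132 CPM in wild type and between 119 and 128 CPM in knockout, and Nr1d1 between 222 and 254 CPM and between 206 and 262 CPM. Npas2 was between 2.72 and 3.58 CPM in wild type and between 2.44 and 3.51 CPM in knockout, with 38 to 74 counts per library. Dbp was between 75.7 and 108 CPM and between 82.8 and 117 CPM. Replicate 3 had the highest Dbp of each of the 4 groups, at 96.7, 98.7, 108 and 117 CPM in P21 wild type, P21 knockout, 18M wild type and 18M knockout. The Spearman correlation of the deviation with GC content was 0.30, 0.45, -0.09 and 0.55 in these libraries. After correction for length and GC content replicate 3 was highest in 18M wild type alone (log2 CPM 6.664, with 6.657 in replicate 2), and what the replicate numbers share is not given in the sources used here.

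Whether the genotype difference itself changed with age was tested as an interaction in 1 fit of the 12 libraries. For 0 of the 9 genes did the interaction pass the FDR in edgeR's quasi-likelihood test, 1 had an unadjusted p under 0.05, and 1 was called by DESeq2. Of all genes tested, 0.209% passed the FDR and 8.89% had an unadjusted p under 0.05. The gene under 0.05 and called by DESeq2 was Cry1, whose log2 fold change in knockout was lower at 18 months than at P21 by a contrast of -0.81 (SE 0.144, unadjusted p 0.000113, FDR 0.0523). It was called in 8 of 10 other settings, among them DESeq2 (FDR 0.000204) and the correction for length and GC content (FDR 0.0175), and not with the size factors of DESeq2 in edgeR or with the filter of filterByExpr. The FDR over these settings was between 0.000204 and 0.0599. Without P21 knockout replicate 2 or 3 it was 0.0448 or 0.00478, and without any of the other 10 libraries it was between 0.0956 and 0.190. Per1 had a contrast of 0.35 (SE 0.183, FDR 0.621) and Nr1d1 of 0.25 (SE 0.150, FDR 0.697).

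Ages were compared within each genotype. In wild type 0 of the 9 genes were called by edgeR's quasi-likelihood test, 1 had an unadjusted p under 0.05, and 0 were called by DESeq2. Of all genes tested, 7.05% were called and 32.2% had an unadjusted p under 0.05. The gene under 0.05 was Nr1d1, at 172, 182 and 191 CPM at P21 and 222, 254 and 230 CPM at 18 months. All older libraries were higher, with a log2 fold change of 0.37 (SE 0.106, FDR 0.0313) that is under 1.5-fold. Without any 1 of the 6 wild-type libraries its FDR was between 0.0536 and 0.120. Groups did not overlap for 4 of the 9 (Arntl, Nr1d1 and Nr1d2 higher and Cry2 lower at 18 months), against 44.2% of all genes. After correction for length and GC content Nr1d1 had 0.41 (FDR 8.45e-05) and Arntl 0.18 (FDR 0.0322, from 0.15 and FDR 0.197 without it), both under 1.5-fold. Markers moved with age in wild type too. Rod markers summed to between 53007 and 55761 CPM at P21 and between 61335 and 62691 CPM at 18 months, ganglion cell markers to between 787 and 873 CPM and between 569.96 and 649 CPM, amacrine markers to between 705 and 752 CPM and between 574 and 614 CPM, pigment epithelium markers to between 152 and 196 CPM and between 48.1 and 115 CPM, and endothelial markers to between 25.0 and 29.7 CPM and between 14.5 and 18.6 CPM, all without overlap. Lens markers, also without overlap, summed to between 41.4 and 188 CPM at P21 and between 3.66 and 28.7 CPM at 18 months. The part of all these markers was not tested. Cry1 had a log2 fold change of 0.000287 (SE 0.102) as normalised, with a mean of 67.1 CPM at both ages.

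In knockout 2 of the 9 were called, against 10.4% of all genes. Cry1 fell from 121 ± 20.1 to 68.8 ± 2.48 CPM (SD, n = 3), a log2 fold change of -0.81 (SE 0.102, FDR 0.000159). Markers of other cell types moved with age in knockout as well. Rod markers summed to between 39793 and 40870 CPM at P21 and between 60029 and 70379 CPM at 18 months, ganglion cell markers to between 800.01 and 1005 CPM and between 555 and 713 CPM, amacrine markers to between 697 and 805 CPM and between 573 and 655 CPM, and endothelial markers to between 29.8 and 46.9 CPM and between 12.3 and 15.4 CPM, all without overlap. Their part in the age differences was not tested. Nr1d1 rose from 152 ± 18.5 to 235 ± 27.8 CPM (SD, n = 3), a log2 fold change of 0.62 (SE 0.107, FDR 0.00124). Its call ended without P21 knockout replicate 2 (0.53, FDR 0.00312), without 18M knockout replicate 3 (0.54, FDR 0.00504), with the correction for length and GC content (0.58, FDR 2.89e-06) and with library size alone (0.51, FDR 0.00444), each time because the change fell under 1.5-fold. Cry2 had a log2 fold change of -0.28 (FDR 0.0279), under 1.5-fold. Its FDR was 0.0991 in a fit of the 6 knockout libraries alone, 0.0522 with no FPKM filter, and 0.0832, 0.0526 and 0.104 without P21 knockout replicate 1, P21 knockout replicate 3 and 18M knockout replicate 2. With the correction Per2 had -0.32 (FDR 0.00968, against 0.109 without it), Dbp 0.25 (FDR 0.0344, against 0.234) and Nr1d2 0.15 (FDR 0.0366, against 0.462), also under 1.5-fold. Groups did not overlap for 3 of the 9 (Cry1, Cry2 and Nr1d1), against 37% of all genes. Npas2, from 6.19, 4.72 and 6.67 CPM at P21 to 3.02, 2.44 and 3.51 CPM at 18 months, had a log2 fold change of -0.96 (SE 0.196, FDR 0.00296) in the fit with no FPKM filter, where it was called. The 2 ages differed in retinal maturity as well, and the interval between collections is not given, so that age and time of collection cannot be told apart. The mix of sexes also differed between the ages in both genotypes, and its part was not tested.

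Other listed clock genes were tested in the same fits, where 0.818% of all genes were called and 16.8% had an unadjusted p under 0.05 at P21, and 0.257% and 9.27% at 18 months. Of 12 further loop genes (11 tested), 0 were called at P21 by edgeR's quasi-likelihood test and 2 had an unadjusted p under 0.05, near the share of all genes, with a median log2 fold change of -0.07. These 2 were Nfil3, which encodes a repressor acting on D-boxes, at 0.28 (FDR 0.280), and Bhlhe40, which encodes a repressor acting on E-boxes, at 0.22 (FDR 0.189). Clock, the usual partner of Arntl, had 160, 158 and 150 CPM in wild type and 139, 178 and 94.5 CPM in knockout. It overlapped (log2 fold change -0.19, FDR 0.684), with knockout replicates 2 and 3 at the extremes as for Nr1d2. Rora and Rorb, whose products activate through ROR elements, had log2 fold changes of -0.20 (FDR 0.735) and -0.22 (FDR 0.694), and Ciart, which encodes a repressor of the loop, had -0.29 (FDR 0.302). At 18 months 0 of the 11 were called by edgeR's quasi-likelihood test and 0 had an unadjusted p under 0.05. With age, Rorb fell in wild type (log2 fold change -0.95, FDR 0.0132) and had -0.58 (FDR 0.0770) in knockout.

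Of 8 kinases and ubiquitin ligase subunits that set the stability of PER and CRY proteins, 0 were called at P21 by edgeR's quasi-likelihood test and 1 had an unadjusted p under 0.05, against 0.818% and 16.8% of all genes. That was Btrc, a subunit that marks PER proteins for degradation, with 210, 202 and 204 CPM in wild type and 156, 161 and 147 CPM in knockout. All knockout libraries were lower, with a log2 fold change of -0.42 (SE 0.070, FDR 0.0408) that is under 1.5-fold. At 18 months it had -0.05 (FDR 0.844), and 0 of the 8 were called or had an unadjusted p under 0.05 in edgeR's quasi-likelihood test, against 0.257% and 9.27% of all genes. Csnk1e, a kinase of PER proteins, had 0.14 (FDR 0.483) at P21, and with age -0.39 in wild type (FDR 0.00522) and -0.48 in knockout (FDR 0.000829), under 1.5-fold.

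Of 11 clock outputs and retinal rhythmic genes (10 tested), 0 were called at P21 by edgeR's quasi-likelihood test and 2 had an unadjusted p under 0.05, near the 16.8% of all genes. Adcy1, an adenylyl cyclase with a daily rhythm in photoreceptors, had 526, 506 and 517 CPM in wild type and 410, 448 and 311 CPM in knockout. All knockout libraries were lower (log2 fold change -0.41, FDR 0.178). Usp2, a deubiquitinase driven by the clock, had 185, 180 and 180 CPM in wild type and 136, 172 and 117 CPM in knockout (log2 fold change -0.36, FDR 0.234). Adcy1 rose with age in knockout (log2 fold change 0.91, FDR 0.000409) and had 0.52 in wild type (FDR 0.0174), under 1.5-fold. At 18 months 0 of the 10 were called or had an unadjusted p under 0.05 in edgeR's quasi-likelihood test. Drd4, the dopamine receptor of photoreceptors, was between 42.2 and 73.6 CPM in P21 wild type and between 29.2 and 68.0 CPM in P21 knockout, and at 18 months between 31.4 and 58.6 CPM and between 25.5 and 58.7 CPM. Replicate 3 was the highest of each group, as for Dbp, and the same held for Gnaz, another listed output, which was chosen after its values were seen. Aanat, the rate-limiting enzyme of melatonin synthesis, was at or under 0.484 CPM in all libraries and was not tested.

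Genes that respond within an hour to light or activity were listed because they bear on the state of the animals at collection. Of 8 such genes (5 tested), 1 was called at P21, against 0.818% of all genes. Egr1, an immediate early transcription factor, had 49.3, 33.5 and 49.97 CPM in wild type and 77.0, 111 and 94.1 CPM in knockout, and all knockout libraries were higher (log2 fold change 1.08, SE 0.185, FDR 0.0456). Fos, of the same class, did not move with it at P21, with 39.7, 35.3 and 37.1 CPM in wild type and 37.2, 37.2 and 42.2 CPM in knockout (log2 fold change 0.05, FDR 0.840). With age 3 of the 5 were called lower in both genotypes, and Dusp1 also fell, by under 1.5-fold (log2 fold change -0.50 in wild type, FDR 0.00447, and -0.41 in knockout, FDR 0.00748). Of all genes tested, 7.05% were called with age in wild type and 10.4% in knockout. Junb, the other tested gene, had means of 4.86 and 4.51 CPM at P21 and 18 months in wild type, and 4.24 and 4.59 CPM in knockout. Fosb, which was not tested, went the other way, without overlap. It was between 1.95 and 2.21 CPM at P21 and between 3.45 and 4.05 CPM at 18 months in wild type. In knockout it was between 2.19 and 3.13 CPM and between 3.14 and 4.18 CPM. Fos had log2 fold changes of -1.64 in wild type (FDR 2.65e-06) and -1.65 in knockout (FDR 1.95e-06), and the values were -1.77 and -2.96 for Egr1, and -1.003 and -0.99 for Nr4a1. At 18 months all libraries had between 10.8 and 13.6 CPM of Fos, and 0 of the 5 genes were called or had an unadjusted p under 0.05 in edgeR's quasi-likelihood test.

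Glucocorticoids also follow a daily rhythm and act on Per1. Of 5 genes induced by them (4 tested), 0 were called at P21 by edgeR's quasi-likelihood test and 3 had an unadjusted p under 0.05, all higher in knockout, against 16.8% of all genes tested. The one not tested, Pdk4, was lower, at 1.07, 0.835 and 0.753 CPM in wild type and 0.547, 0.511 and 0.523 CPM in knockout, from 8 to 19 counts. Sgk1, a kinase, had 108, 110 and 107 CPM in wild type and 140, 162 and 148 CPM in knockout (log2 fold change 0.46, FDR 0.0402), under 1.5-fold. Fkbp5, a co-chaperone of the glucocorticoid receptor, had 63.2, 61.9 and 68.1 CPM in wild type and 87.5, 96.9 and 83.7 CPM in knockout (log2 fold change 0.47, FDR 0.0524). Tsc22d3 had 0.24 (FDR 0.249), and Per1, induced by the same hormone, was lower in these libraries, as given above. At 18 months 0 of 3 tested were called by edgeR's quasi-likelihood test and 1, Tsc22d3, had an unadjusted p under 0.05 (log2 fold change 0.28, FDR 0.439), against 0.257% and 9.27% of all genes. With age Fkbp5 fell in wild type and knockout (log2 fold changes -0.69 and -0.94), as did Tsc22d3 (-0.68 and -0.65), and Sgk1 rose (2.33 and 1.91). The part of light, stress or hour of collection in these values was not tested.

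The genes whose log2 CPM was most like that of Arntl over the 12 libraries, among 12439 tested genes, were Helq (r = 0.93), Spata6 (0.92), Suv39h2 (0.91), Pold3 (0.90) and Mbd2 (0.88). Those most like Dbp were Lsm4 (r = 0.94), Lrrc24 (0.94), Sncb (0.93), Sh2d3c (0.93) and Snrpa (0.93). The core clock genes themselves were left out of this search, and none of the genes found is among the other listed clock genes. The 12 points share library composition and depth. Among the clock genes r with Dbp was 0.70 for Nr1d1 and 0.61 for Per1, genes of near phase and of like GC content. It was -0.32 for Nr1d2, -0.55 for Per3 and -0.73 for Per2. With length and GC content corrected, r with Dbp was 0.74 for Nr1d1, 0.47 for Per1 and 0.58 for Nr1d2. It was then -0.08 for Per3 and remained negative for Per2, at -0.61.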

How the data were processed

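Stranded, 100-base paired-end retinal RNA-seq was performed by the authors, who aligned reads to mm10 with TopHat2 2.1.1, and the deposited values are raw counts per gene from featureCounts. The annotation behind the counts is not given in the sources used here. The tables of the authors' own fold changes were not used. The counts were fitted with edgeR 4.0.16 (R 4.3.3). Genes with at least 2 FPKM in at least 1 library were kept, TMM factors computed, and the quasi-likelihood test run with Benjamini-Hochberg adjustment over all genes, with 6 libraries per age for genotype and 12 for interaction and age. Log2 CPM used a prior count of 2. The script was tested on simulated counts. Samples were grouped by their labels, and p-values measure the spread between these samples. Depth limits precision most for Npas2. Alternatives were DESeq2 1.42.0, other normalization, filters, tests and corrections (lowess span 0.3), covariates, a replicate block and leaving out each library. All 10 clock genes are named, and of each other list the called genes or those with the largest changes, at most 6. Genes most like Arntl and Dbp were the 5 with the highest r outside the 10 clock genes. Members and lists were chosen with earlier results of these data known. Length and GC content, taken from the count table and the longest GENCODE M21 transcript, were available for all 10 clock genes and 95.7% of tested genes.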

Additional observations from a re-analysis of the deposited data

How the results depend on the processing

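Over all alternatives 515 values kept their direction and side of the threshold (or stayed within the spread), 13 reversed, 11 lost and 10 gained a call, and 33 moved. Of the 11, 6 were Cry1 at P21, by FDR, and 5 were Nr1d1 with age in knockout, by fold alone. The corrections that include GC content, the covariates and the added Cry1 were chosen after seeing the data. Where no cause is named, the cause was not tested. The count of clock genes called at P21, 1, was 0 with the pigment epithelium level or Xist as a covariate, and 0 or 1 with single libraries left out (between 0 and 1). The count at 18 months and in wild type with age was 0 in every alternative. For the interaction it was 1, Cry1, with library size alone (-0.90), no FPKM filter (-0.80), DESeq2 (-0.81), the likelihood ratio test (-0.81), the replicate block (-0.80), the length correction (-0.81), the length and GC correction (-0.83) and the replicate block with that correction (-0.82), and between 0 and 1 with a library left out. In knockout with age it was 1 with library size alone and with the length and GC correction with or without the replicate block, between 1 and 2 with a library left out, and 3 with no FPKM filter or filterByExpr, which admit Npas2. Library size alone shifted the median of all genes by -0.11 there.

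At P21 Per3 (-0.03) had 0.061 with library size alone, 0.072 with the length correction, 0.062 with the length and GC correction, 0.056 with the replicate block as well and 0.14 with the pigment epithelium covariate, and with a library left out it was between -0.17 and 0.087. Nr1d2 (-0.07) had 0.014 with library size alone and 0.086 with the pigment epithelium covariate, and between -0.23 and 0.085 with a library left out. Cry1 at 18 months (0.03) had -0.010 with the length and GC correction and -0.0091 with the replicate block as well.

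The genotype difference of the phase contrast at P21 was 0.41 for Arntl against Nr1d1 and Dbp, 0.62 without the Per genes, 0.24 without Npas2 and 0.65 with Cry1 added. At 18 months it was -0.014 for Arntl against Nr1d1 and Dbp and -0.016 without the Per genes. The difference between ages in wild type, -0.09, was -0.21 without the Per genes and 0.068 without Npas2, so that its sign rested on Npas2. In knockout the difference of -0.67 was -0.47 for Arntl against Nr1d1 and Dbp, -0.84 without the Per genes, -0.20 without Npas2 and -0.78 with Cry1 added.

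Same-numbered libraries of the 2 genotypes did not deviate together throughout. Their correlations across genes were -0.23, 0.39 and 0.56 at P21, and 0.37, -0.09 and 0.22 at 18 months. Between the ages they were 0.25, -0.05 and 0.21 in wild type and -0.0055, 0.22 and 0.48 in knockout. These mixed values cannot decide whether the numbers pair the samples. A replicate block moved the count of all genes called at P21 from 99 to 175. That count was 65 with library size alone, 149 with no filter, 228 with DESeq2, 259 with the likelihood ratio test, 194 with all 12 libraries in the fit, 231 with the length and GC correction, 289 with the block as well, 5 with the pigment epithelium covariate and between 6 and 340 with a library left out. At 18 months it was 31, and 62 with DESeq2, 56 with the likelihood ratio test, 410 with the pigment epithelium covariate and between 12 and 36 with a library left out. For the interaction it was 26, and 154 with DESeq2, 99 with the likelihood ratio test, 48 with the replicate block, 61 with the length correction, 169 with the length and GC correction, 276 with the block as well and between 6 and 33 with a library left out. With 38 to 153 counts per library, small changes of Npas2 could not be shown.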
